A study of Mus musculus with 8 samples.

Results

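The Sprouty and Spred genes encode feedback inhibitors of receptor tyrosine kinase signalling. The members were defined by name as Spry1, Spry2, Spry3, Spry4, Spred1, Spred2 and Spred3, that is 4 Sprouty and 3 Spred genes among the 52636 gene identifiers of a count table from mouse epiblast. All 7 were found, and all 7 were among the 18321 genes with enough reads to test. ERK, the last kinase of the RAS-RAF-MEK-ERK cascade, is switched on in these cells when fibroblast growth factors (FGFs) bind their receptors. ERK raises transcription of several Sprouty genes in many cell types, and the Sprouty proteins then dampen the same cascade, in part by binding the adaptor Grb2 and the ubiquitin ligase Cbl. Spred proteins sit at the membrane and bring the RAS-inactivating protein neurofibromin, the product of Nf1, to RAS. Sprouty and Spred proteins share a cysteine-rich carboxy-terminal domain.

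The study asked which transcripts respond to ERK in the epiblast, which gives rise to the body of the embryo. Embryos of embryonic day 5.5 carried Sox2Cre, a Cre recombinase driven in the epiblast by the Sox2 promoter, and CRAFR26, an inducible construct through which 4-hydroxytamoxifen (4OHT) switches on ERK. They were cultured in IVC2, an embryo culture medium, for 4 h with 250 nM 4OHT or with its solvent ethanol, and the extraembryonic layers were dissected away. Each library came from 7 ng RNA of 10 pooled epiblasts. There were 4 groups of 2 libraries: vehicle clone 4, 4OHT clone 4, vehicle clone 8 and 4OHT clone 8. Clones 4 and 8 are named in the labels as the biological clones behind the replicates, and the mouse line was made from embryonic stem cells that carry the construct. All 4 groups carried Sox2Cre and the construct, so the vehicle groups are the controls, and embryos given 4OHT without the construct were not analysed here. The vehicle libraries are named 0 h in their titles but given 4 h in vehicle by their treatment label. If they were in fact taken at 0 h, the 4OHT groups differ from them by the time in culture as well.

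Depth was 33.3 M to 38.0 M counts (M is mega) in vehicle and 56.4 M to 72.5 M in 4OHT libraries, with no overlap. Mitochondrial genes took 0.205 to 0.619% of the counts in 6 libraries and 1.19 and 1.35% in the 2 4OHT libraries of clone 8. The labelled tissue was borne out by its markers: the 9 epiblast markers, among them Pou5f1 and Sox2, summed to between 4574 and 5748 counts per 1000000 of the scaled library total (CPM) in each library. Their sum was 5370 to 5748 CPM in the vehicle libraries and 4574 to 5069 CPM in the 4OHT libraries, without overlap. Dnmt3b alone gave 2409 to 3188 CPM of it, and Sox2 gave 10.1 to 32.7 CPM. Markers of the layers that the dissection removes were also present. The 16 visceral endoderm markers summed to 2635 and 2976 CPM in 4OHT clone 4 and to 1827 and 1862 CPM in vehicle clone 8, against 481 to 1296 CPM in the other 2 groups. The 12 extraembryonic ectoderm markers summed to 218 and 271 CPM in vehicle clone 8 and to 541 to 788 CPM in the other 3 groups. The 7 markers of nascent mesoderm summed to 21.2 to 117 CPM, and 1 of them, Mesp1, was the single marker at 0, in 4 libraries. In pooled tissue, fewer cells of a type and less RNA per cell cannot be told apart. Nothing in the labels says that the replicates came from separate litters, so p-values measure the spread between these libraries.

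Levels of the 7 genes were first compared with each other on 1 scale, CPM per kilobase of exonic length, in every library. Spry2 was the most abundant, with a median over the 8 libraries of 52.6 CPM per kb and a range of 42.8 to 75.6. Spry4 followed at 18.2 CPM per kb, with a range of 9.55 to 23.6, and Spry1 at 10.8, with a range of 7.24 to 14.5. The order of these 3 Sprouty genes held within each of the 8 libraries, although the ranges of Spry4 and Spry1 over all libraries overlapped. The 3 Spred genes lay lower, at a median of 4.31 CPM per kb for Spred2 (2.46 to 6.02), 3.33 for Spred1 (2.89 to 6.09) and 2.39 for Spred3 (1.76 to 4.02). Spred2 exceeded Spred1 in 4 of the 8 libraries, so that no order between them was found. Spred1 exceeded Spred3 in all 8 libraries, with ranges that overlapped. Spry3 stood last at 0.359 CPM per kb (0.257 to 0.541), below every other member in each library, and its counts were 46 to 127 per library. Its gene lies in the annotation on the scaffold GL456233.1. Per kilobase of coding sequence the order was the same except that Spred1 (15.7) stood above Spred2 (14.0).

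**Figure D1:**
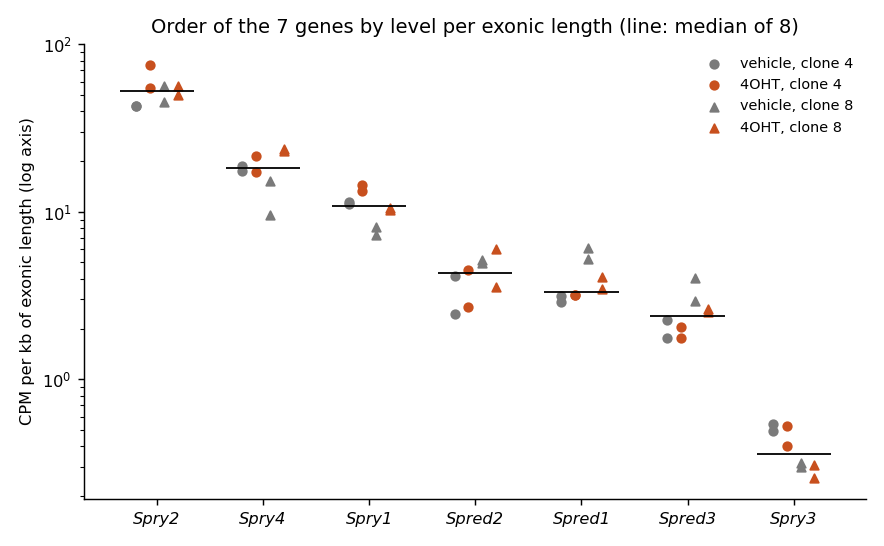
Levels of the 7 Sprouty and Spred genes in CPM per kilobase of exonic length, on a log axis. Points are the 8 libraries by group and bars are medians over them; Spry2 (median 52.6) stands highest and Spry3 (median 0.359) lowest.

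Summed over the 7 genes, the family stood at 81.2 ± 2.84 CPM per kb (SD, n = 2) in vehicle clone 4 and 108 ± 9.22 (SD, n = 2) in 4OHT clone 4. In clone 8 it stood at 85.7 ± 11 (SD, n = 2) in vehicle and 98.2 ± 5.97 (SD, n = 2) in 4OHT. The Sprouty genes made up 80.4 to 93.3% of that sum across the libraries, and the share was lowest in vehicle clone 8, at 80.4 and 86.0%. Spry2 alone gave 42.8 of the mean sum in vehicle clone 4 and 65.4 in 4OHT clone 4. In clone 8 it gave 51.1 in vehicle and 53.0 in 4OHT. The sums were not tested and do not describe each member.

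4OHT was compared with vehicle within each clone in 1 fit of the 4 groups by edgeR's quasi-likelihood test, with Benjamini-Hochberg adjustment across the 18321 tested genes and a call at an adjusted p under 0.05. In clone 8, Spry4 rose and Spred1 fell, and the other 5 members did not pass the test. That is 2 of 7 members called, where 16.6% of all tested genes were called, 8% higher and 8.6% lower. In clone 4, 0 of 7 members were called, where 0.0382% of tested genes, 7 in all, were called. At an unadjusted p under 0.05 there was 1 member in clone 4, where 9.9% of all genes passed, and there were 3 in clone 8, where 33.2% passed. The median log2 fold change over the members was 0.09 in clone 4 and -0.08 in clone 8, beside -0.0047 and 0.07 over all tested genes. Members moved both ways in clone 8, so these medians do not describe its single members. With library totals in place of TMM scaling, the median over all genes in clone 8 rose by 0.12, and the share of calls that were higher went from 48.2 to 66.2%.

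**Figure D2:**
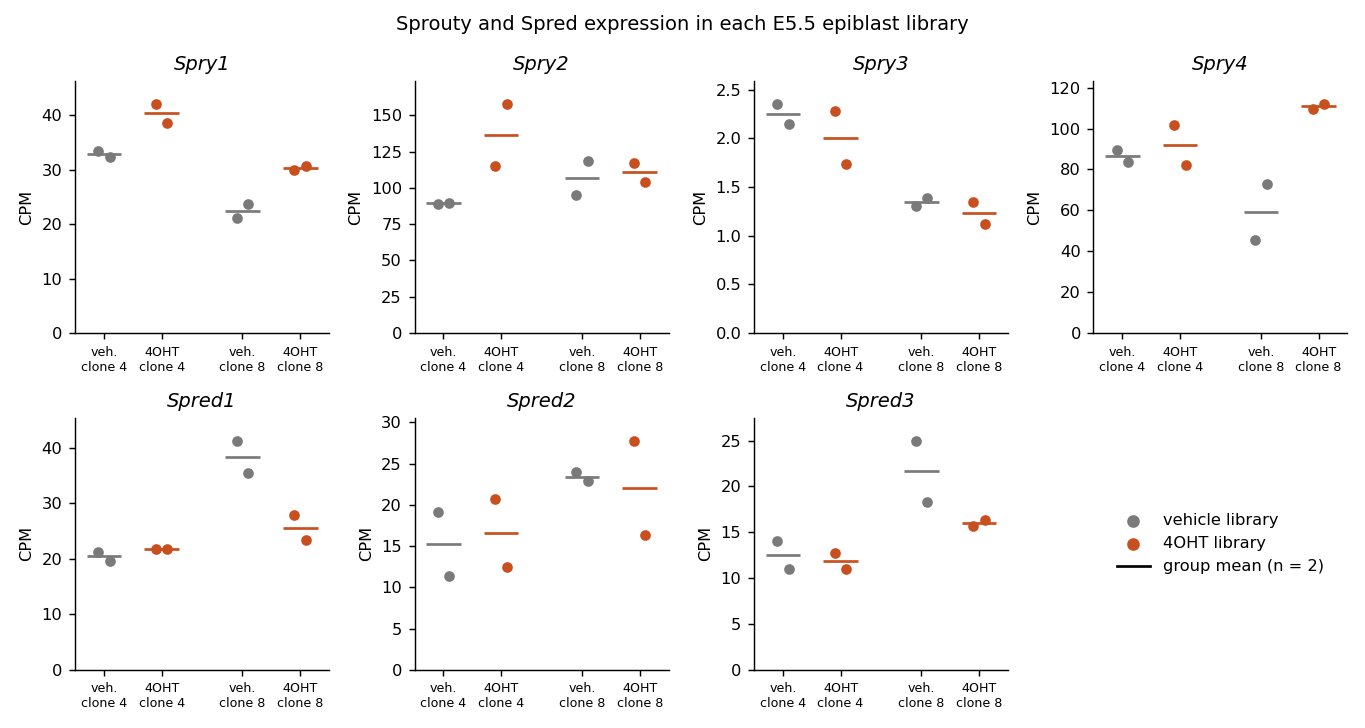
CPM of each member in every library, with 1 panel per gene and the y axis starting at 0. Points are single libraries in the 4 groups of clone and treatment; Spry4 is lowest and Spred1 highest in vehicle clone 8.

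Spry1 (ENSMUSG00000037211), a classical ERK-induced Sprouty, lies on chromosome 3 at chr3:37639947-37644598 on the plus strand of GRCm38. The 250 bases before its start are shown because it was the 1 member whose 4OHT libraries lay above the vehicle libraries in both clones. Capitals mark CG dinucleotides, of which there were 23, more than in 86.7% of all promoters in the RefSeq table (GRCm38.p6, chr3:37639697-37639946, plus strand, 5′ to 3′).
Spry1: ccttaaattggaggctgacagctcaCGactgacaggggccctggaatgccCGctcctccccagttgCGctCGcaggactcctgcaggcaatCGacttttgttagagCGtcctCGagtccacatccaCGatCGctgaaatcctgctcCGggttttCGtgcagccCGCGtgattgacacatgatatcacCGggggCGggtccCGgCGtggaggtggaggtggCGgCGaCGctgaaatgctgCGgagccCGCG
Spry1 stood at 33.4 and 32.4 CPM in vehicle clone 4 and at 42 and 38.6 CPM in 4OHT clone 4. In clone 8 it stood at 21 and 23.6 CPM in vehicle and at 29.9 and 30.6 CPM in 4OHT. In each clone, both 4OHT libraries exceeded both vehicle libraries, a pattern that 7.29% of all tested genes shared. The log2 fold change was 0.29 (SE 0.15, adjusted p = 0.581, edgeR) in clone 4 and 0.44 (SE 0.15, adjusted p = 0.0751) in clone 8. With both clones in 1 fit and clone as a term it was 0.37 (SE 0.12, adjusted p = 0.195), and the unadjusted p was 0.0121. None of these passed the threshold, which Spry1 did pass in clone 8 with library totals in place of TMM scaling (0.56, adjusted p = 0.0410) and with DESeq2 (0.42, adjusted p = 0.0385). Even so, the 4OHT libraries of clone 8 lay below the vehicle libraries of clone 4. A gene on the opposite strand, Gm42922, overlaps Spry1, and the use of strand in counting is not given in the sources used here.

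Spry2 (ENSMUSG00000022114), the most abundant member, lies at chr14:105891947-105896819 on the minus strand, and no annotated gene overlaps it. It stood at 89.2 and 89.4 CPM in vehicle clone 4 and at 115 and 158 CPM in 4OHT clone 4. In clone 8 it stood at 95 and 118 CPM in vehicle and at 117 and 104 CPM in 4OHT. The 4OHT libraries of clone 4 were thus both above their controls, with 1 of them well above the other, and those of clone 8 lay within the vehicle range. The log2 fold change in clone 4 was 0.61 (SE 0.17, 95% interval 0.227 to 0.996), with an unadjusted p of 0.00562 and an adjusted p of 0.241 by edgeR. It fell to 0.37 without 4OHT clone 4 replicate 2. The value in clone 8 was 0.05 (SE 0.17, adjusted p = 0.855). Clone 8 minus clone 4, the responses differed by -0.56 (SE 0.24, unadjusted p = 0.0447, adjusted p = 0.210) and was not called. By DESeq2 Spry2 passed in clone 4 (0.62, adjusted p = 0.0386). The 4OHT libraries of clone 4 also held more of the 16 visceral endoderm markers, 2635 and 2976 CPM in sum against 552 and 886 CPM in their controls, and the part of this in the values of Spry2 was not tested.

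Spry3 (ENSMUSG00000061654), the Sprouty gene with the fewest counts, lies at positions 101352 to 106395 of the minus strand of scaffold GL456233.1. It stood at 2.35 and 2.14 CPM in vehicle clone 4, 2.28 and 1.74 CPM in 4OHT clone 4, 1.31 and 1.39 CPM in vehicle clone 8, and 1.35 and 1.12 CPM in 4OHT clone 8. The treated and control libraries overlapped in each clone, and the libraries of clone 8 all lay below those of clone 4. Log2 fold changes on 4OHT were -0.17 (SE 0.35) in clone 4 and -0.13 (SE 0.36) in clone 8, with adjusted p-values of 0.932 and 0.834 (edgeR), and neither passed the test.

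Spry4 (ENSMUSG00000024427), which in many cell types is among the Sprouty genes most quickly raised by ERK, lies at chr18:38586247-38601415 on the minus strand. It stood at 45.4 and 72.9 CPM in vehicle clone 8 and at 110 and 112 CPM in 4OHT clone 8. The treated replicates were close to each other, and both controls were lower and further apart. The log2 fold change was 0.91 (SE 0.21, 95% interval 0.44 to 1.37), a 1.87-fold rise, with an adjusted p of 0.0213 by edgeR. In clone 4, Spry4 stood at 89.7 and 83.6 CPM in vehicle and at 102 and 82.4 CPM in 4OHT, so that the groups overlapped. There the log2 fold change was 0.09 (SE 0.20, 95% interval -0.37 to 0.55, adjusted p = 0.940). The 6 libraries other than those of vehicle clone 8 all lay between 82.4 and 112 CPM. The response in clone 8 exceeded that in clone 4 by 0.82 (SE 0.29, unadjusted p = 0.0196), which did not pass the adjusted threshold (adjusted p = 0.146). Over both clones the change was 0.50 (SE 0.20, adjusted p = 0.260).

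The call of Spry4 in clone 8 rested on vehicle clone 8 replicate 1. Without that library the log2 fold change was 0.58 and the adjusted p 0.130, and 0 genes of the whole table were called in clone 8. Without vehicle clone 8 replicate 2 it was 1.26 (adjusted p = 0.0101). With clone 8 fitted alone the change was 0.88 and the adjusted p 0.0793. The group in which Spry4 was low was also the one in which the 12 extraembryonic ectoderm markers were low, at 218 and 271 CPM against 633 and 777 CPM in 4OHT clone 8. Of these 12 markers, 9 were called higher on 4OHT in clone 8, and none of them was at 0 in any library. Of the 16 visceral endoderm and 9 epiblast markers, 5 and 4 were called lower there. The part of these shifts in the result for Spry4 was not tested. Gm27369 and Gm27804, both on the opposite strand, overlap Spry4.

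**Figure D3:**
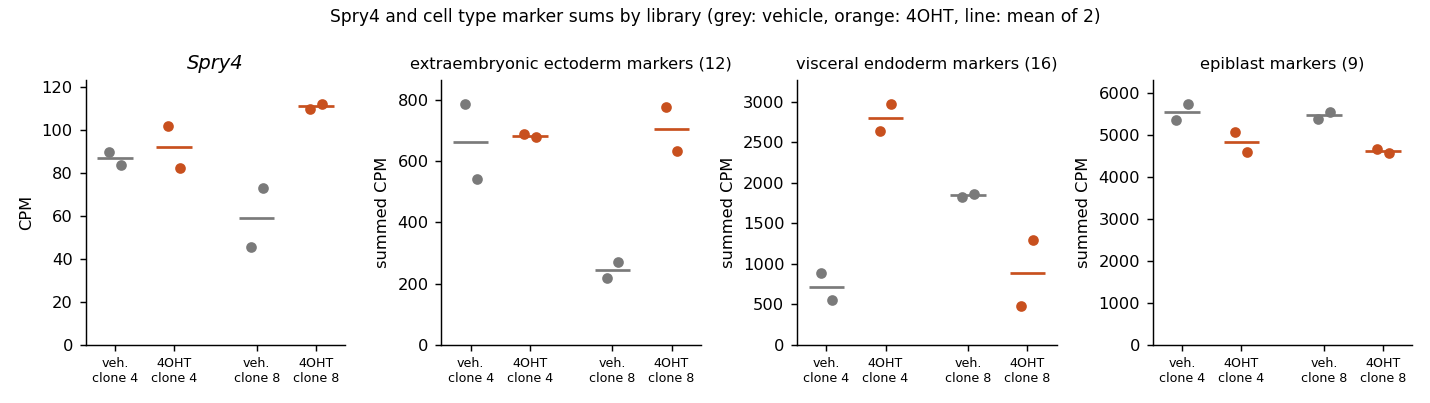
Spry4 in CPM beside the summed CPM of 12 extraembryonic ectoderm, 16 visceral endoderm and 9 epiblast markers, with 1 point per library in each of the 4 groups. Vehicle clone 8 is lowest both for Spry4 (45.4 and 72.9 CPM) and for the extraembryonic ectoderm sum (218 and 271 CPM).

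Spred1 (ENSMUSG00000027351), the Spred gene whose loss in people causes Legius syndrome, lies at chr2:117121374-117182279 on the plus strand. The 250 bases before the start site in the RefSeq table are shown because Spred1 was the 1 member called in more than 1 comparison (GRCm38.p6, chr2:117120821-117121070, plus strand, 5′ to 3′). Those comparisons, 4OHT in clone 8 and the clones in vehicle, share the vehicle clone 8 libraries, so the calls are not independent. The capitals again mark CG dinucleotides, of which there were 31, more than in 94.8% of all promoters.
Spred1: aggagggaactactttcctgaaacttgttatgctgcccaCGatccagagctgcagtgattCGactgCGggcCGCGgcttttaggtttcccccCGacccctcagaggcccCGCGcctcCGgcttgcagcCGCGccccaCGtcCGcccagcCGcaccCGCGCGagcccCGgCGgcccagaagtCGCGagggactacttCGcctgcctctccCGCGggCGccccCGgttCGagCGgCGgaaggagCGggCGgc
Spred1 stood at 41.3 and 35.4 CPM in vehicle clone 8 and at 27.9 and 23.4 CPM in 4OHT clone 8. It stood at 21.3 and 19.6 CPM in vehicle clone 4 and at 21.8 and 21.7 CPM in 4OHT clone 4. Vehicle clone 8 was the high group, and the treated libraries of clone 8 lay between it and clone 4. Its log2 fold change in clone 8 was -0.58 (SE 0.17, 95% interval -0.96 to -0.20), a fall to 0.668 of the vehicle level, with an adjusted p of 0.0460 by edgeR. Spred1 in clone 4 changed by 0.09 (SE 0.17, adjusted p = 0.924). Clone 8 minus clone 4, the responses differed by -0.67 (SE 0.24, unadjusted p = 0.0205) and did not pass the adjusted threshold (adjusted p = 0.149). The call in clone 8 lay close to the threshold. Of the 8 fits with 1 library removed, 2 kept it, and over these fits the change lay between -0.72 and -0.46 and the adjusted p between 0.0379 and 0.220. The 2 that kept it were those without vehicle clone 8 replicate 2 or 4OHT clone 8 replicate 1, and the adjusted p was highest without vehicle clone 8 replicate 1 (-0.49). With library totals in place of TMM the change was -0.45 (adjusted p = 0.0999), and with clone 8 fitted alone it was -0.61 (adjusted p = 0.117). Vehicle clone 8 also held the low extraembryonic ectoderm sum (218 and 271 CPM) and a visceral endoderm sum of 1827 and 1862 CPM, beside 481 and 1296 CPM in 4OHT clone 8. Their part in the result for Spred1 was not tested.

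Spred2 (ENSMUSG00000045671), which also recruits neurofibromin, lies at chr11:19924375-20024026 on the plus strand. It stood at 19.1 and 11.3 CPM in vehicle clone 4 and at 20.7 and 12.5 CPM in 4OHT clone 4. In clone 8 it stood at 23.9 and 22.9 CPM in vehicle and at 27.8 and 16.3 CPM in 4OHT. In 3 of the 4 groups the replicates lay further apart than the treated and control means of either clone, and treated and control libraries overlapped in both clones. Log2 fold changes were 0.12 (SE 0.34) in clone 4 and -0.08 (SE 0.34) in clone 8, with adjusted p-values of 0.952 and 0.887.

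Spred3 (ENSMUSG00000037239), the least abundant Spred gene, lies at chr7:29158829-29170411 on the minus strand and overlaps Ggn on the opposite strand. It stood at 14.1 and 11 CPM in vehicle clone 4, 12.8 and 11 CPM in 4OHT clone 4, 25.0 and 18.3 CPM in vehicle clone 8, and 15.7 and 16.4 CPM in 4OHT clone 8. Like Spred1, Spred3 was highest in vehicle clone 8, and in clone 8 its treated libraries lay below the controls without overlap. The log2 fold change in clone 8 was -0.43 (SE 0.22, adjusted p = 0.203) and in clone 4 -0.08 (SE 0.22, adjusted p = 0.950).

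**Figure D4:**
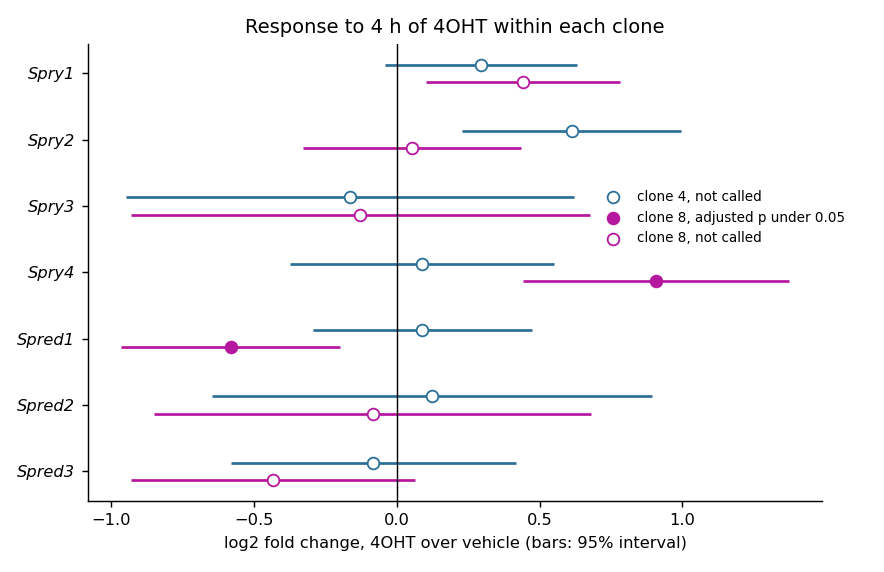
Log2 fold change of 4OHT against vehicle for each member in clone 4 and clone 8, with 95% intervals from edgeR's quasi-likelihood fit. Filled points passed an adjusted p of 0.05: Spry4 (0.91) and Spred1 (-0.58), both in clone 8.

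Without regard to the test, 3 members had both 4OHT libraries above both vehicle libraries in clone 4 (Spry1, Spry2 and Spred1), a pattern that 23.7% of all genes showed. There 0 members lay below without overlap, beside 23.8% of all genes. In clone 8, 2 lay above (Spry1 and Spry4), beside 31.7% of all genes, and 2 lay below without overlap (Spred1 and Spred3), beside 28.3%. In either direction, the 3 of 7 members in clone 4 compare with 47.5% of all genes and the 4 of 7 in clone 8 with 60%, so these counts were close to the background. Between the clones, 0 of 7 responses differed at the adjusted threshold, where 2.83% of all genes did, and 3 did so at an unadjusted p under 0.05 (Spry2, Spry4 and Spred1), where 22.7% of all genes did. DESeq2 called 0, with adjusted p-values of 0.0563 for Spry4 and 0.0569 for Spred1, where it called 774 genes higher and 1090 lower. With both clones in 1 fit, 0 of 7 members were called, where 1 gene of 18321 (0.00546%) was called. At an unadjusted p under 0.05 there were 2 members (Spry1 and Spry4), where 16.9% of all genes passed, and DESeq2 called 1 (Spry1). Over all 18321 genes DESeq2 called 476 higher and 577 lower in this comparison.

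The clones were also compared with each other in vehicle, to give the level of each member without 4OHT. These vehicle libraries are also the controls of the responses, so the values are set side by side and not as independent results. Spred1 was called higher in vehicle clone 8 than in vehicle clone 4, by 0.91 (SE 0.17, adjusted p = 0.0238, edgeR), and the other 6 members were not called. Of all genes 8.37% were called, and 4.06% were called higher. That call was kept in 3 of the 8 fits without 1 library, with changes of 0.81 to 1.04, and was lost without vehicle clone 8 replicate 1 (0.81, adjusted p = 0.186), where 0 genes of the table were called. Spred3 (0.79, SE 0.22, adjusted p = 0.0610) and Spred2 (0.62, adjusted p = 0.302) had higher values in clone 8, and Spry1 (-0.56, SE 0.15, adjusted p = 0.0525), Spry4 (-0.55, SE 0.21, adjusted p = 0.130) and Spry3 (-0.74, adjusted p = 0.234) lower ones. Spry2 differed by 0.26 (adjusted p = 0.401). In 7 of 7 members the vehicle libraries of the clones did not overlap, beside 58.8% of all genes: 4 were higher in clone 8 (29.7% of all genes) and 3 lower (29.2%). For Spry4 and Spred1, the vehicle difference between clones (-0.55 and 0.91) was thus opposite in sign to the response in clone 8 (0.91 and -0.58). The same held for Spry1 (-0.56 and 0.44), Spred3 (0.79 and -0.43) and Spred2 (0.62 and -0.08). It did not hold for Spry2 (0.26 and 0.05) and Spry3 (-0.74 and -0.13). The vehicle libraries of clone 8 enter the 2 values with opposite sign.

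In the 4OHT libraries, 5 members still did not overlap between the clones, beside 47.9% of all genes. Spry4, Spred1 and Spred3 lay higher in clone 8 (23.7% of all genes) and Spry1 and Spry3 lower (24.2%), and Spry2 and Spred2 overlapped. Spry4 was thus the 1 member that lay lower in clone 8 in vehicle and higher in clone 8 on 4OHT. The share of all genes with both was not counted. On 4OHT its nearest libraries stood at 102 CPM in clone 4 and 110 CPM in clone 8, a difference that was not tested.

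Other genes of the pathway were taken as a list. Of 23 other ERK targets and feedback genes, 0 were called in clone 4 by edgeR. There 5 had an unadjusted p under 0.05, beside 9.9% of all genes. DESeq2 called 2, 1 each way, beside 382 higher and 86 lower over the 18321 tested genes. In clone 8, 10 were higher and 2 lower, with a median log2 fold change of 0.74 beside 0.07 over all genes, of which 16.6% were called. In the same comparison 9 of 12 extraembryonic ectoderm markers were called higher and 5 of 16 visceral endoderm markers lower, and the mitochondrial share in 4OHT clone 8 was 1.19 and 1.35%. Their part in these counts was not tested. Egr1, an immediate early gene, rose by 5.25 there (adjusted p = 0.00834, edgeR), from 5.77 and 6.12 CPM to 74.7 and 379 CPM. Fos rose by 2.61, and the AP-1 genes Fosl1 and Junb by 2.07 and 1.52. The 4OHT clone 8 libraries stood at 15.1 and 49.4 CPM for Fos and at 64.3 and 124 CPM for Junb. Vehicle clone 4 stood at 19.8 and 16.4 CPM for Fos and 85.3 and 44.1 CPM for Junb, so both overlapped that group. Egr2 rose by 2.99, from 0.530 and 0.542 CPM to 1.11 and 7.42 CPM. Egr3, with 0 and 4 counts in vehicle clone 8, was also called, at 1.09 and 9.03 CPM in 4OHT clone 8. Dusp6, the gene of an ERK phosphatase, rose by 0.79 (SE 0.18, adjusted p = 0.0200), beside 0.91 for Spry4, from 150 and 184 CPM to 240 and 339 CPM. The ETS factor genes Etv4 (0.25, adjusted p = 0.285) and Etv5 (0.47, adjusted p = 0.102), which are FGF targets, were not called. Lower were Mcl1, by 0.81, and Ccnd1, by 0.74, on the log2 scale. In clone 4, Egr1 stood at 8.05 and 18.2 CPM in vehicle and 55.4 and 75.9 CPM in 4OHT (2.32, adjusted p = 0.234), while Dusp6 changed by 0.15 (adjusted p = 0.852). The clone 4 values of Fos, Fosl1 and Junb were -0.66, -0.59 and 0.14, none of them called. Fosl1 stood at 3.51 and 6.03 CPM in vehicle clone 8 and at 22.9 and 17.1 CPM in 4OHT clone 8. Its level in vehicle clone 4 was 32.8 and 22.6 CPM, so 4OHT clone 8 did not exceed that group. Responses differed between the clones for 3 of the 23, Fos, Fosl1 and Etv1, beside 2.83% of all genes. Over both clones 0 of the 23 were called, and 11 had an unadjusted p under 0.05, beside 16.9% of all genes. DESeq2 called 5 of them, beside 476 higher and 577 lower over the 18321 tested genes. Without vehicle clone 8 replicate 1, 0 of the 23 were called in clone 8 and 0 for the difference, as held for the whole table. The whole table also had 0 calls for the difference without 4OHT clone 4 replicate 1 or replicate 2.

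The 37 genes of the FGF, RAS and ERK cascade and of known partners of Sprouty or Spred proteins gave 1 call in clone 4, the receptor gene Fgfr3, which rose by 2.35 (adjusted p = 0.0342, edgeR). With the replicate block, and in 5 of the 8 fits that leave out a library, that without vehicle clone 8 replicate 1 among them, 0 genes of the whole table were called in clone 4. The 16 visceral endoderm markers had a median log2 fold change of 1.94 in clone 4, with 16 of 16 above 0 and 0 called, and their part in the value of Fgfr3 was not tested. In clone 8, 8 pathway genes were higher and 4 lower, beside 8 and 8.6% of all genes, with a median of 0.20 beside 0.07. The marker shifts given for the ERK targets in clone 8 stand beside these counts too, and 0 of the 37 were called there without vehicle clone 8 replicate 1. The higher ones included the adaptors Gab1 (1.52) and Frs2 (1.37), the receptors Fgfr4 (1.33) and Fgfr2 (1.22) and the kinase Braf (1.29). Lower were Hras (-1.51), Ppp2ca (-1.49), the catalytic subunit of a phosphatase that acts on Sprouty2, Mapk3 (-0.87), which encodes ERK1, and Rasa1 (-0.84), a RAS GTPase-activating protein. In vehicle clone 8, Hras stood at 33.8 and 28.1 CPM, against 12.7 and 9.04 CPM in 4OHT clone 8 and 12.4 and 10.3 CPM in vehicle clone 4. Gab1 stood at 24.6 and 47.7, 105 and 103, and 118 and 77.6 CPM in these groups in turn. For Hras, Gab1, Frs2, Ppp2ca and Rasa1, the 4OHT libraries of clone 8 lay nearer to vehicle clone 4 than to vehicle clone 8. Those of Fgfr4, Fgfr2 and Braf lay above both vehicle groups, and those of Mapk3 below both. Nf1, the partner of the Spred proteins, stood at 8.92 and 6.03 CPM in vehicle clone 8 and 10.4 and 7.37 CPM in 4OHT clone 8 (0.25, adjusted p = 0.560) and was not called. Between the clones 4 responses differed, all lower in clone 8: Fgfr3, Ppp2ca, Hras and Mapk3, where 2.83% of all genes differed. None of the 37 did so without vehicle clone 8 replicate 1, and no gene of the table did without 4OHT clone 4 replicate 1 or replicate 2. Over both clones 0 were called, and 10 had an unadjusted p under 0.05, beside 16.9% of all genes. DESeq2 called 5 of the 37, beside 476 higher and 577 lower over the 18321 tested genes. Between the vehicle groups 5 were higher and 5 lower in clone 8, beside 4.06 and 4.31% of all genes. Fgfr2 is also an extraembryonic ectoderm marker here, and Fgf5 an epiblast marker.

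Promoters were searched for 4 short motifs of factors downstream of ERK, in windows of 250 bases before and 50 after the start site, on both strands. The motifs were an ETS motif (CCGGAAG), AP-1 (TGACTCA or TGAGTCA), EGR (GCGTGGGCG or GCGGGGGCG) and CRE (TGACGTCA). None of the 5 members searched, Spry1, Spry2, Spred1, Spred2 and Spred3, held an exact match, and 8.86, 5.2, 3.47 and 1.79% of the 32851 promoters in the table did, in the order given. This says only that these letters are not in these windows. CG dinucleotides numbered 23 in the 250 bases of Spry2, 12 in Spred2 and 6 in Spred3, and the median over all promoters was 6.

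Reads could in principle be shared between family members. Among 6 members with a transcript sequence, compared in 15 pairs, the longest identical run was 11 to 17 bases.

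The genes whose log2 CPM ran most like that of each member over the 8 libraries were taken from tested genes above the median level. The 8 libraries share their clone, condition and depth, so these correlations are a description. For Spry4 they were B4galnt1 and Zbtb2 (Pearson r 0.989 each), and for Spred1 Hnrnpl (0.995) and Cul3 (0.994). For Spry1 they were Pnma5 (0.987) and Necap1 (0.982), for Spry2 Gadd45g (0.945) and BC024978 (0.942), and for Spry3 Pomk (0.981) and Mfap1b (0.965). For Spred2 they were Tcp11l1 (0.969) and Dnajc2 (0.968), and for Spred3 Cep164 (0.983) and Mlxip (0.982). By Spearman's rho, 3 of these 14 genes were again among the nearest pairs.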

How the data were processed

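RNA was sequenced from 8 libraries of mouse epiblast, 2 in each of 4 groups of clone and treatment. The authors deposited raw read counts per Ensembl gene in 1 table with no normalization, as its whole numbers and differing totals show. Per the submitters' processing notes, bcl2fastq 2.19.1, STAR 2.5.3a and the build mm10 were used; the counting program, annotation release and use of strand are not given in the sources used here. Per the labels' protocols, cDNA came from a low-input kit. Of 52636 identifiers, 52403 were named from a gene name table, 86, Spry3 included, from the GENCODE M21 annotation, and 147 were unmatched.

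Counts were tested with edgeR 4.0.16 in R 4.3.3. filterByExpr with the 4 groups and a minimum count of 10 left 18321 genes, which were scaled by TMM and tested with glmQLFit and glmQLFTest, with Benjamini-Hochberg adjustment over all tested genes and calls at an adjusted p under 0.05. The clone responses, their difference and the vehicle comparison came from 1 fit of the 4 groups (biological coefficient of variation 0.266), and the response over both clones from a fit with clone as an additive term (0.321). CPM are counts per 1000000 of the TMM-scaled total; a prior count of 2 entered log2 CPM. Levels per length used exonic kilobases of GENCODE M21. The procedure was tested on simulated data. The members, the lists of ERK targets, pathway genes and markers, and the motifs were chosen with earlier results of these data known. Of the lists, genes called in a comparison were named, up to 6 each way by size, and Nf1, Dusp6, Etv4, Etv5 and Egr1 whether called or not (another such gene is not reported here); the 2 most correlated genes above the median log2 CPM of 2.87 were named for each member.

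Alternatives were DESeq2 1.42.0, scaling by RLE or by library totals, filters of none or of 10 counts in each library, an adjusted p under 0.01, the replicate number as a block, each clone alone, the mean of the within-clone responses, no clone term, coding length, Spearman's rho, and leaving out each library. The setting of glmQLFit's legacy option planned as an alternative is the default of this version, so the option switched off was added after seeing the data. So was the comparison of the clones in 4OHT, which is a description of overlap.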

Additional observations from a re-analysis of the deposited data

Results flagged for a closer look

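The libraries of Spred1 lay on opposite sides in the clones: both 4OHT libraries of clone 8 lay below both vehicle libraries of that clone, and both 4OHT libraries of clone 4 lay above theirs. Of all genes, 28.3% lay below without overlap in clone 8 and 23.7% above in clone 4, and the share with both was not counted. In clone 4 the nearest libraries were close, at 21.7 CPM in 4OHT and 21.3 CPM in vehicle. The response in clone 8 minus that in clone 4 was -0.67 on the log2 scale (SE 0.24), and by edgeR's test of that difference the adjusted p was 0.149, which did not pass the threshold. For Spred1 the value was 0.09 on the log2 scale in clone 4 (SE 0.17, adjusted p = 0.924, edgeR), which did not pass the test, with 21.3 and 19.6 CPM in vehicle and 21.8 and 21.7 CPM in 4OHT.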

How the results depend on the processing

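The directions of Spry4 and Spred1 in clone 8 held under all alternatives run. The Spry4 call was kept in 7 of 8 fits without 1 library and in 7 of the 8 other alternatives at the same threshold, and the Spred1 call in 2 of 8 and 5 of 8. Counts of members called moved with the settings. Without the expression filter 1 member was called in each of clone 4, clone 8, the difference between clones and both clones, and 3 between the vehicle groups. The vehicle count was also 3 with at least 10 counts in every library and with DESeq2. DESeq2 called 1 member in clone 4 and 1 over both clones. At an adjusted p under 0.01, 0 were called in clone 8 and 0 in the vehicle comparison, and 0 in clone 8 fitted alone. Leaving out 1 library each time gave 0 to 2 members in clone 8, 0 to 1 for the difference and 0 to 3 between the vehicle groups. The 1 called for the difference was Spry4, without vehicle clone 8 replicate 2 (1.17, adjusted p = 0.0474). The cause was not tested.

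The correlation of same-numbered libraries' deviations was 0.0947 in clone 4 and -0.0101 in clone 8, so the numbers were not taken as pairs. With the replicate number as a block, 0 members were called in clone 4, 2 in clone 8, 0 for the difference and 0 over both clones.

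Changes of sign fell on uncalled members. Spred2 turned to 0.045 in clone 8 with library totals and to -0.0029 over both clones with the replicate block. Across fits without 1 library, Spred2 ran from -0.29 to 0.55 in clone 4, -0.52 to 0.25 in clone 8, -0.67 to 0.20 for the difference and -0.16 to 0.17 over both clones. Spry3 ran from -0.37 to 0.018 in clone 4, from -0.27 to 0.00039 in clone 8 and from -0.15 to 0.24 for the difference. In clone 4 Spred3 ran from -0.24 to 0.11 and Spry4 from -0.072 to 0.23, and in clone 8 Spry2 ran from -0.12 to 0.19.

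Per kilobase of coding length the median levels were 116 CPM per kb for Spry2, 96.3 for Spry4, 33.6 for Spry1, 15.7 for Spred1, 14.0 for Spred2, 12.2 for Spred3 and 1.81 for Spry3. By Spearman's rho, 3 of the 14 most similar genes were the same.

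Over the whole table, genes called higher and lower were 7 and 0 in clone 4, against 566 and 162 with no filter, 382 and 86 in DESeq2, 205 and 15 in clone 4 alone, 73 and 5 with at least 10 counts in every library and 16 and 0 with the legacy option off; 0 were called with the replicate block, at an adjusted p under 0.01 and without vehicle clone 4 replicate 1, either vehicle clone 8 library or either 4OHT clone 4 library, and leaving out 1 library gave 0 to 244 higher and 0 to 15 lower. In clone 8 they were 1465 and 1576, against 2361 and 1902 without the filter, 116 and 156 at an adjusted p under 0.01, and 0 in clone 8 alone or without vehicle clone 8 replicate 1 (0 to 1491 and 0 to 1727 without 1 library). For the difference they were 198 and 321, against 214 and 197 with library totals, 998 and 1116 without the filter, 774 and 1090 in DESeq2, 0 at an adjusted p under 0.01, and 0 to 446 and 0 to 759 without 1 library. Library totals moved the higher share of those calls from 38.2 to 52.1%. Over both clones they were 1 and 0, against 807 and 530 with no filter, 476 and 577 in DESeq2 and 449 and 614 as the mean of the within-clone responses, and 0 with the replicate block, at least 10 counts in every library, an adjusted p under 0.01, or 7 of the 8 fits without 1 library. Between the vehicle groups they were 744 and 790, against 1359 and 1542 with no filter, 1528 and 1536 in DESeq2 and 7 and 21 at an adjusted p under 0.01, and 0 to 1264 and 0 to 1230 without 1 library. Depth limits Spry3 most, with 46 to 127 counts per library.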
